A study of Mus musculus with 9 samples.

Results

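CD11b- B cells and peritoneal macrophages (PMs) are the 2 reference populations of this series, and their transcriptomes were compared over all genes. The CD11b- B cells came from the bone marrow (BM) of wild-type C57BL/6 mice 48 h after an intraperitoneal injection of lipopolysaccharide (LPS, 5 mg/kg). LPS is a glycolipid of the outer membrane of Gram-negative bacteria. The PMs came from untreated wild-type mice. Of the 9 libraries in the series, 6 belong to this comparison, 3 of CD11b- B cells and 3 of PMs, and the other 3 hold CD11b+ B cells. PMs were sorted as CD11b+F4/80+ cells, whereas BM cells were first depleted of cells carrying CD3, CD4, CD8, Gr-1, NK1.1 or TER119 and then sorted as B cells without CD11b. Tissue, cell type and LPS exposure differ together between the groups, so their parts in any difference cannot be told apart. An age was not found in the sources used here. All 6 libraries contained reads of Xist, and the Y-linked genes Ddx3y, Eif2s3y, Kdm5d and Uty were at 0 in all 6. The labels do not say that replicates are separate mice, and p-values measure the spread between these libraries. The study's methods reserve SD for biological replicates, and its plot of these FPKM values has SD bars.

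B cells recognize antigen with a surface immunoglobulin that signals through CD79a and CD79b, and the transcription factors Pax5 and Ebf1 hold them in the B cell lineage. Macrophages engulf particles, degrade them in lysosomes and handle the lipids that this releases, and they depend on the receptor for CSF1 and on the transcription factor PU.1. Resident macrophages of the peritoneal cavity are further set by the transcription factor Gata6. LPS is sensed by TLR4 with its partner MD-2, after transfer by the LPS binding protein and CD14.

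Levels are given as FPKM, the reads of a gene scaled to its length and to the size of the library, in the order of replicates 1, 2 and 3 of each group. Parentheses give the limma log2 fold change ± SE, positive where CD11b- B cells were higher, with its adjusted p. Reads on genes numbered 32056102 to 34895579 in CD11b- B cell libraries and 18014658 to 29208721 in PM libraries, so values near 0 are less certain in PMs. Between 21128 and 22882 genes had a read in CD11b- B cell libraries, and between 17386 and 17526 in PM libraries. Pearson's r between libraries of 1 group was 0.918 to 0.983 across genes, and between groups it was 0.686 to 0.731. Genes are not independent replicates, so these values are descriptions.

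Replicate 3 of the CD11b- B cells stood apart from replicates 1 and 2. It carried genes of B cell precursors that were near 0 in the other 2, such as Rag1 (0.0136, 0.0911 and 14 FPKM), which cuts DNA in immunoglobulin gene rearrangement, and Igll1 (0.0277, 0.0132 and 53.9 FPKM), a part of the surrogate light chain. Its proliferation genes were lower, for example Top2a (28.3, 17.5 and 6.38 FPKM), which untangles replicated DNA. Among PM libraries, replicate 1 held the most RNA of most B cell markers. Ebf1 was highest in replicate 2 and Ms4a1 in replicate 3. For 8 B cell markers, the level in PMs was 0.665 to 3.33% of the CD11b- B cell mean in replicate 1 (median 1.86%), 0.344 to 1.158% in replicate 2 (median 0.824%) and 0.492 to 1.44% in replicate 3 (median 0.852%). In the opposite direction, 8 macrophage markers were at 0.0215 to 1.74% of the PM mean in CD11b- B cell libraries, with medians of 0.107 to 0.128%. In bulk samples, fewer cells of a type and less RNA per cell cannot be told apart.

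The labels were checked with 4 markers. Cd79a, the signalling chain of the B cell receptor, was at 2249.9, 2473 and 2579.7 FPKM in CD11b- B cells and 35.4, 23.9 and 21.6 FPKM in PMs (6.47 ± 0.22, adjusted p = 9.65e-07). Cd74, the invariant chain of MHC class II, was at 10361, 11194 and 9342 FPKM in CD11b- B cells and 676, 1652 and 1410.4 FPKM in PMs (3.14 ± 0.40, adjusted p = 0.000786). CD11b- B cells were above PMs in every library for both genes, by 90.3-fold and 8.27-fold of the mean FPKM. Apoe, an apolipoprotein, was at 14169, 25669.8 and 21113 FPKM in PMs and 30.7, 32.9 and 65.8 FPKM in CD11b- B cells (-8.89 ± 0.36, adjusted p = 2.24e-06). Lyz2, a lysozyme of myeloid cells, was at 18657, 41511 and 53006 FPKM in PMs and 30.8, 30.1 and 42.2 FPKM in CD11b- B cells (-9.95 ± 0.40, adjusted p = 2.16e-06). The markers went in the direction of the labels, and the lower group held between 0.0911% of the higher mean for Lyz2 and 12.1% for Cd74. Sort genes were also as labelled, which is no finding: Itgam (CD11b) was at 0.4, 0.251 and 0.869 FPKM in CD11b- B cells and 358, 254 and 251 FPKM in PMs, and Adgre1 (F4/80) was at 1.49, 0.558 and 0.279 against 232, 240.4 and 345 FPKM in the same order. The exact two-sided permutation test gave 0.1 for each of these genes, which is the smallest p that 3 against 3 libraries allow.

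The promoters of Cd79a and Lyz2 are shown because these genes mark the opposite ends of the comparison. Each sequence is the 250 bases before the transcription start, 5′ to 3′ on the strand of the gene, from RefSeq on GRCm38.p6. The Cd79a window is chr7:24897247-24897496 on the plus strand and the Lyz2 window is chr10:117282273-117282522 on the minus strand. Capitals mark AGGAAGT or its reverse complement, a core bound by ETS factors such as PU.1.
Cd79a: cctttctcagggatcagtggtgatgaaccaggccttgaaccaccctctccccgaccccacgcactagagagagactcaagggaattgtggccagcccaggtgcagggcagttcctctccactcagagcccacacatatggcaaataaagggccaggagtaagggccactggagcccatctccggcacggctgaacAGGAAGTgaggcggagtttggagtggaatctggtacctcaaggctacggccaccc
Lyz2: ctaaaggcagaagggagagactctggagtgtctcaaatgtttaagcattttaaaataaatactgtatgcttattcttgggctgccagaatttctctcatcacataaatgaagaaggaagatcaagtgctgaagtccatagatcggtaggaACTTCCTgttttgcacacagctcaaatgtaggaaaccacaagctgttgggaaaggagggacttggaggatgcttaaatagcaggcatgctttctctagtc
The match lies 55 to 49 bases before the RefSeq start of Cd79a on the strand of the gene, and 100 to 94 bases before that of Lyz2 on the opposite strand. The GENCODE M21 models start inside these windows, at 24897381 for Cd79a and at 117282321 for Lyz2, so that the match is inside the GENCODE model of Cd79a and before that of Lyz2. Of 32851 promoter windows of this length, 7.69% held AGGAAGT on either strand. Searches of both strands for the EBF1 palindrome, the octamer ATGCAAAT, the composite of PU.1 with an IRF and TTGCGCAA (C/EBP) found no match in these 2 windows, and 0.779%, 1.601%, 2.30% and 0.164% of all windows held these letters. AGGAAGT and the composite of PU.1 with an IRF both contain GGAA and can overlap, and a match to any motif is no evidence of binding. The gene for PU.1, Spi1, was at 40.6, 40.2 and 51.1 FPKM in CD11b- B cells and 69.6, 132 and 88.8 FPKM in PMs (-1.08 ± 0.25, adjusted p = 0.012), and its relative Spib was at 747, 684 and 897 FPKM in CD11b- B cells and 8.09, 6.36 and 2.42 FPKM in PMs (6.98 ± 0.35, adjusted p = 6.19e-06). Spi1 was 2.2-fold higher in PMs, a call lost without replicate 1 or 2 of the CD11b- B cells, and Spib was 138-fold higher in CD11b- B cells.

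Of 20985 genes with a mean of at least 0.05 FPKM, limma on log2(FPKM + 1) with Benjamini-Hochberg adjustment called 5404 higher in CD11b- B cells and 2306 higher in PMs. These are 25.8% and 11.0% of the genes tested, or 36.7% in both directions together, and counts of list members below are set against them. At least 4-fold differences on this scale were found for 1300 of the genes higher in CD11b- B cells and 919 of those higher in PMs, and at least 32-fold differences for 160 and 172 genes. Genes with a mean of at least 1 FPKM in both groups numbered 9316, beside 2447 in CD11b- B cells alone and 1906 in PMs alone. Called genes with at least 1 FPKM in 1 group and less than 0.1 FPKM in the other numbered 754 for CD11b- B cells and 599 for PMs.

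The balance of the calls depended on scaling. With median-ratio scaling of the same values, 3401 genes (16.2%) were called higher in CD11b- B cells and 3086 (14.7%) in PMs, so that the share of calls higher in CD11b- B cells went from 70.1% to 52.4%. With edgeR on the recovered reads 3200 genes were higher in CD11b- B cells and 3163 in PMs, and with DESeq2 3718 and 4030, so that calls higher in PMs were then the majority. With median-ratio scaling the median log2 fold change of all tested genes went from 0.24 to 0.087, and that of genes with at least 1 FPKM in both groups from 0.51 to 0.065. The 100 most abundant genes took 30.5 to 37.6% of reads in PMs and 20.7 to 21.6% in CD11b- B cells. The single most abundant gene took 3.03% (Apoe), 5.49% (Apoe) and 6.98% (Lyz2) of reads in PM replicates 1, 2 and 3. The part of this difference in the shift was not tested.

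**Figure D1:**
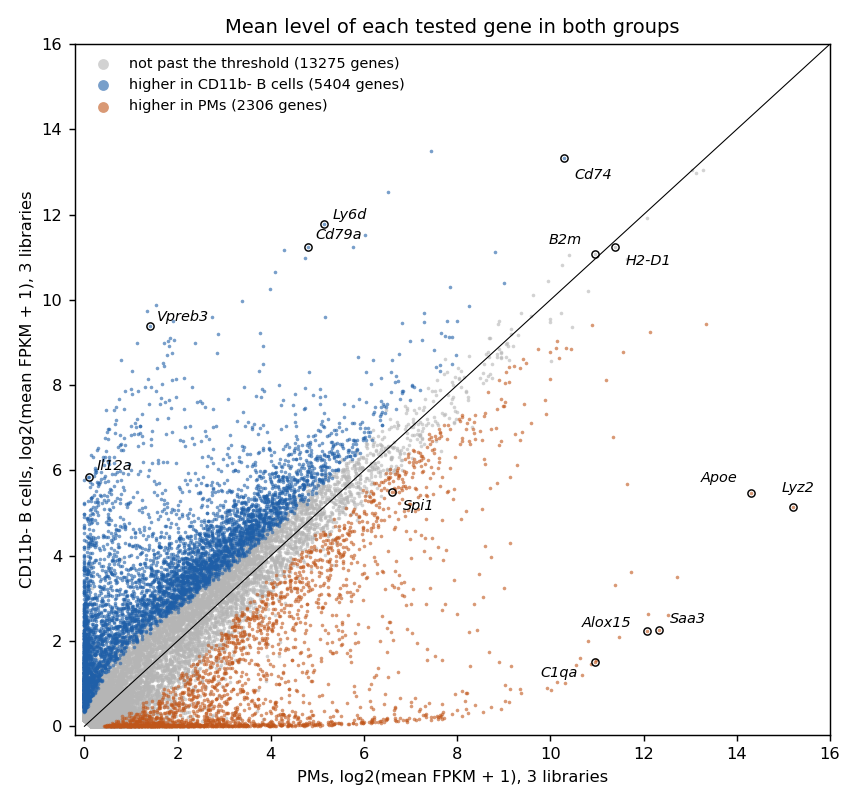
Each point is 1 of 20985 tested genes, with log2(mean FPKM + 1) over 3 PM libraries on the x axis and over 3 CD11b- B cell libraries on the y axis, coloured by the limma call, and the line marks equal means. Cd79a, Ly6d and Vpreb3 lie far above the line, Apoe, Lyz2 and Saa3 far below it, and B2m and H2-D1 close to it at high levels.

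**Figure D2:**
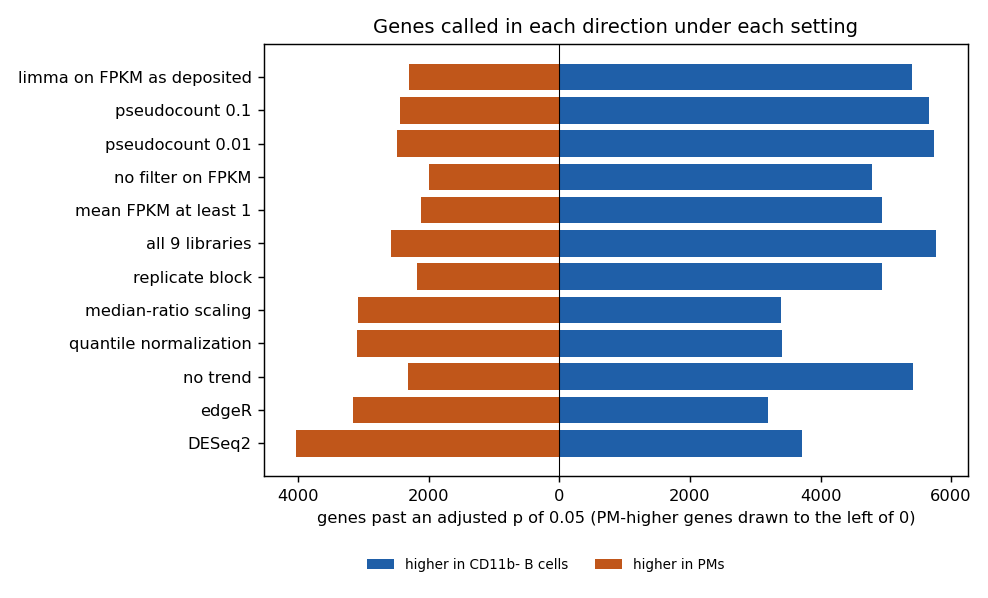
Bars give the number of genes past an adjusted p of 0.05 in each direction (x axis) under each setting (y axis), with genes higher in CD11b- B cells to the right and genes higher in PMs to the left of 0. The FPKM as deposited gave 5404 against 2306 genes, and median-ratio scaling gave 3401 against 3086.

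Transcription factors of the B cell lineage were higher in CD11b- B cells for 17 of 18 tested members, and their median log2 fold change was 3.12 (0.24 over all tested genes). Pax5 was at 30.7, 34.4 and 37.7 FPKM in CD11b- B cells and 1.14, 0.217 and 0.252 FPKM in PMs (4.57 ± 0.28, adjusted p = 1.6e-05). Ebf1 was at 33.6, 33.4 and 58.7 FPKM in CD11b- B cells and 0.279, 0.411 and 0.295 FPKM in PMs (4.96 ± 0.27, adjusted p = 9.03e-06), and without replicate 3 of the CD11b- B cells its log2 fold change was 4.70. Replicate 3 of the CD11b- B cells was the highest library for Ebf1. Ets1, which restrains plasma cell formation, was at 139.7, 126 and 129 FPKM in CD11b- B cells and 1.99, 0.509 and 1.38 FPKM in PMs. Pou2af1, a coactivator of octamer factors at immunoglobulin genes, was at 191, 199 and 246 FPKM in CD11b- B cells and 4.64, 2.77 and 1.28 FPKM in PMs. None of these ranges overlapped, and PMs held between 0.783% and 1.57% of the CD11b- B cell mean of Ebf1, Ets1, Pax5 and Pou2af1. Klf2, which restrains lymphocyte activation, was the member that went the other way, at 562, 332 and 368 FPKM in PMs and 133, 175 and 64.4 FPKM in CD11b- B cells (-1.83 ± 0.38, adjusted p = 0.00817). Irf8, a factor shared by B cells and myeloid cells, was at 122, 122 and 129.5 FPKM in CD11b- B cells and 20, 16.4 and 16.2 FPKM in PMs (2.77 ± 0.15, adjusted p = 9.64e-06).

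Genes of B cell receptor signalling were higher in CD11b- B cells for 23 of 26 tested members and higher in PMs for 1, and their median log2 fold change was 2.22. The chains and coreceptors that belong to B cells differed most. Cd72, an inhibitory coreceptor, was at 269, 261 and 429 FPKM in CD11b- B cells and 1.61, 0.59 and 0.927 FPKM in PMs (7.29 ± 0.27, adjusted p = 1.43e-06). Cd22, a sialic acid-binding inhibitory receptor, was at 205, 206 and 211 FPKM in CD11b- B cells and 3.21, 1.51 and 1.65 FPKM in PMs (6.10 ± 0.22, adjusted p = 1.43e-06). The 2 groups were further apart for these receptors than for shared enzymes downstream, such as the kinase Btk at 90.9, 98.1 and 109.9 FPKM in CD11b- B cells and 36.8, 33.3 and 29.6 FPKM in PMs (1.56 ± 0.16, adjusted p = 0.000275) and the phospholipase Plcg2 at 109, 88.9 and 97.4 FPKM in CD11b- B cells and 22, 29.1 and 29.8 FPKM in PMs (1.84 ± 0.18, adjusted p = 0.000204). Lyn, a kinase with activating and inhibitory roles, was at 135, 130.4 and 133 FPKM in CD11b- B cells and 76.3, 86.4 and 84.3 FPKM in PMs. It had a log2 fold change of 0.69 (adjusted p = 0.00736) and of 0.16 with median-ratio scaling (adjusted p = 0.504). Fcgr2b, the inhibitory Fc receptor, was the member higher in PMs, at 109, 101 and 92.8 FPKM in PMs and 25, 25.8 and 22.3 FPKM in CD11b- B cells (-2.01 ± 0.15, adjusted p = 5e-05). Cd81, a tetraspanin of the B cell coreceptor complex, at 94.9, 89.9 and 79.6 FPKM in CD11b- B cells and 91.2, 99.4 and 119 FPKM in PMs, and the adaptor Dapp1, at 38.8, 32.7 and 34.8 FPKM in CD11b- B cells and 57.1, 41.4 and 42.5 FPKM in PMs, did not pass the threshold. Both were called higher in PMs with median-ratio scaling (-0.75, adjusted p = 0.0221, and -0.91, adjusted p = 0.00407).

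Of 11 tested constant-region genes of immunoglobulins, 7 were higher in CD11b- B cells. Ighm, the heavy chain of IgM, was at 5667, 5073 and 6887 FPKM in CD11b- B cells and 118, 68 and 84.6 FPKM in PMs (6.04 ± 0.26, adjusted p = 2.88e-06). Ighd, that of IgD, was at 882, 1076 and 1032 FPKM in CD11b- B cells and 19.9, 3.42 and 4.9 FPKM in PMs (6.93 ± 0.52, adjusted p = 5.45e-05). The light chain gene Igkc was at 11123, 12312 and 11099.8 FPKM in CD11b- B cells and 228, 152 and 133 FPKM in PMs. The unswitched heavy chains thus stood at 65.2-fold and 106-fold over PMs, and Ighd in PMs was highest in replicate 1. Igha, the switched heavy chain of IgA, was also among the 7 genes higher in CD11b- B cells. Its log2 fold change was 1.52 without replicate 3 of the CD11b- B cells and 1.43 without PM replicate 1. The IgG genes were low: Ighg2b was at 1.66, 0.91 and 22.9 FPKM in CD11b- B cells and 0.187, 0.0384 and 0.148 FPKM in PMs (2.14 ± 0.87, adjusted p = 0.095), with most of its reads in replicate 3 of the CD11b- B cells, and Ighg3 was at 3.41, 2.85 and 0.546 FPKM in CD11b- B cells (adjusted p = 0.0605). Ighg1, Ighg2b, Ighg2c and Ighg3 did not pass the threshold. Without replicate 3 of the CD11b- B cells, 9 constant-region genes passed, with Ighg2b (log2 fold change 1.004, adjusted p = 0.0225) and Ighg3 (1.72, adjusted p = 0.0125) among them.

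All 18 tested members of the list of B cell surface and homing genes were higher in CD11b- B cells (median log2 fold change 4.15). With median-ratio scaling 16 were. Tnfrsf13c, the receptor for the survival factor BAFF, was at 543, 533 and 436 FPKM in CD11b- B cells and 3.31, 1.62 and 1.84 FPKM in PMs (7.31 ± 0.22, adjusted p = 6.99e-07). Fcmr, the receptor for IgM, was at 532, 574 and 498 FPKM in CD11b- B cells and 2.4, 1.83 and 4.17 FPKM in PMs (7.18 ± 0.23, adjusted p = 8.81e-07). Ccr7, a receptor that guides cells to lymph nodes and follicle borders, was at 132, 135 and 108 FPKM in CD11b- B cells and 0.645, 0.312 and 0.326 FPKM in PMs (6.47 ± 0.19, adjusted p = 6.38e-07). In PMs these 3 genes were at or below 0.524% of the CD11b- B cell mean. The same list held Ms4a1 (CD20) at 635, 551 and 344 FPKM in CD11b- B cells and 3.62, 3.41 and 5.57 FPKM in PMs. S1pr1, a receptor for the egress signal S1P, was at 123, 124 and 109 FPKM in CD11b- B cells and 85.3, 58.5 and 63.1 FPKM in PMs, where the log2 fold change of 0.79 became 0.26 with median-ratio scaling (adjusted p = 0.273).

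By size, and leaving out immunoglobulin segments that are rearranged, Vpreb3 led the genes higher in CD11b- B cells, at 407, 402 and 1188 FPKM in CD11b- B cells and 2.2, 0.917 and 1.79 FPKM in PMs (7.82 ± 0.43, adjusted p = 1.02e-05), followed by Tnfrsf13c, Cd72, Fcmr, Fcer2a, Spib, Ighd, Iglc1, Srpk3, Ly6d, Scd1 and Ms4a1. Vpreb3 assists the assembly of immunoglobulin in early B cells, and without replicate 3 of the CD11b- B cells, which held the highest value, its log2 fold change was 7.30. In that fit Tnfrsf13c had the larger log2 fold change, so the lead of Vpreb3 rested on this library. Ly6d, a surface protein first made by early B cell progenitors, was at 3206, 3550.4 and 3738 FPKM in CD11b- B cells and 51.1, 25.2 and 26 FPKM in PMs (6.71 ± 0.29, adjusted p = 2.73e-06). Scd1, a desaturase of fatty acids, was at 251, 232 and 211 FPKM in CD11b- B cells and 1.18, 0.966 and 1.54 FPKM in PMs (6.71 ± 0.17, adjusted p = 3.74e-07). Srpk3, a kinase known from muscle, was at 160.3, 168 and 177 FPKM in CD11b- B cells and 0.997, 0.197 and 0.445 FPKM in PMs (6.81 ± 0.22, adjusted p = 8.71e-07). For Scd1 and Srpk3, which were in none of the gene lists, CD11b- B cells were 188-fold and 309-fold above PMs. Fcer2a, the low-affinity receptor for IgE (CD23), was at 234, 254 and 203 FPKM in CD11b- B cells and 1.31, 0.421 and 0.769 FPKM in PMs (7.002 ± 0.22, adjusted p = 7.43e-07).

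Of 13 tested genes of B cell precursors, 3 were higher in CD11b- B cells, Vpreb3, Lef1 and Il2ra, a share near the 25.8% of all tested genes. Il7r, the receptor for the growth factor of precursors, was at 0.61, 0.615 and 36.5 FPKM in CD11b- B cells and 0.0238, 0.272 and 0.0106 FPKM in PMs (2.07 ± 1.13, adjusted p = 0.196). Dntt, which adds bases at immunoglobulin junctions, was at 0, 0 and 15.9 FPKM in CD11b- B cells and at 0 in all 3 PM libraries (adjusted p = 0.333). Vpreb1, a second part of the surrogate light chain, was at 0.125, 0.789 and 41.5 FPKM in CD11b- B cells and 1.02, 1.11 and 0.0413 FPKM in PMs (1.42 ± 1.25, adjusted p = 0.393). Without replicate 3 of the CD11b- B cells, the log2 fold change was 0.56 for Il7r (adjusted p = 0.0555) and -0.21 for Vpreb1 (adjusted p = 0.705). In each of these 3 genes, replicate 3 alone carried the CD11b- B cell mean. Among 10 precursor genes with a mean of at least 1 FPKM in CD11b- B cells, 8 were more than 2-fold higher in replicate 3 than in the mean of replicates 1 and 2, Dntt had reads in replicate 3 alone, and Lef1 was at 1.31 times that mean. Il2ra remained past the threshold without that library (log2 fold change 1.66, adjusted p = 0.00444), but not without PM replicate 2 or 3.

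Proliferation genes were higher in CD11b- B cells for 21 of 22 tested members (median log2 fold change 2.63), and for 17 with median-ratio scaling. Rrm2, a subunit of ribonucleotide reductase, was at 83.9, 58.5 and 18 FPKM in CD11b- B cells and 1.46, 0.148 and 0.59 FPKM in PMs (4.79 ± 0.56, adjusted p = 0.00054). Mcm7, a subunit of the replicative helicase, was at 56.8, 44.5 and 37.1 FPKM in CD11b- B cells and 1.28, 2.37 and 5.73 FPKM in PMs (3.64 ± 0.39, adjusted p = 0.000354). Mki67, the proliferation marker Ki-67, was at 16.3, 11.4 and 4.25 FPKM in CD11b- B cells and 4.17, 1.27 and 1.162 FPKM in PMs (1.82 ± 0.52, adjusted p = 0.0279, and 1.42 with an adjusted p of 0.0724 by median-ratio scaling). PMs were low but not at 0, and replicate 3 of the CD11b- B cells was the lowest of its group for all 22 members, at 0.152 to 0.858 times the mean of replicates 1 and 2. Without it, all 22 members were higher in CD11b- B cells, and the log2 fold change of Top2a went from 3.27 to 3.82.

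**Figure D3:**
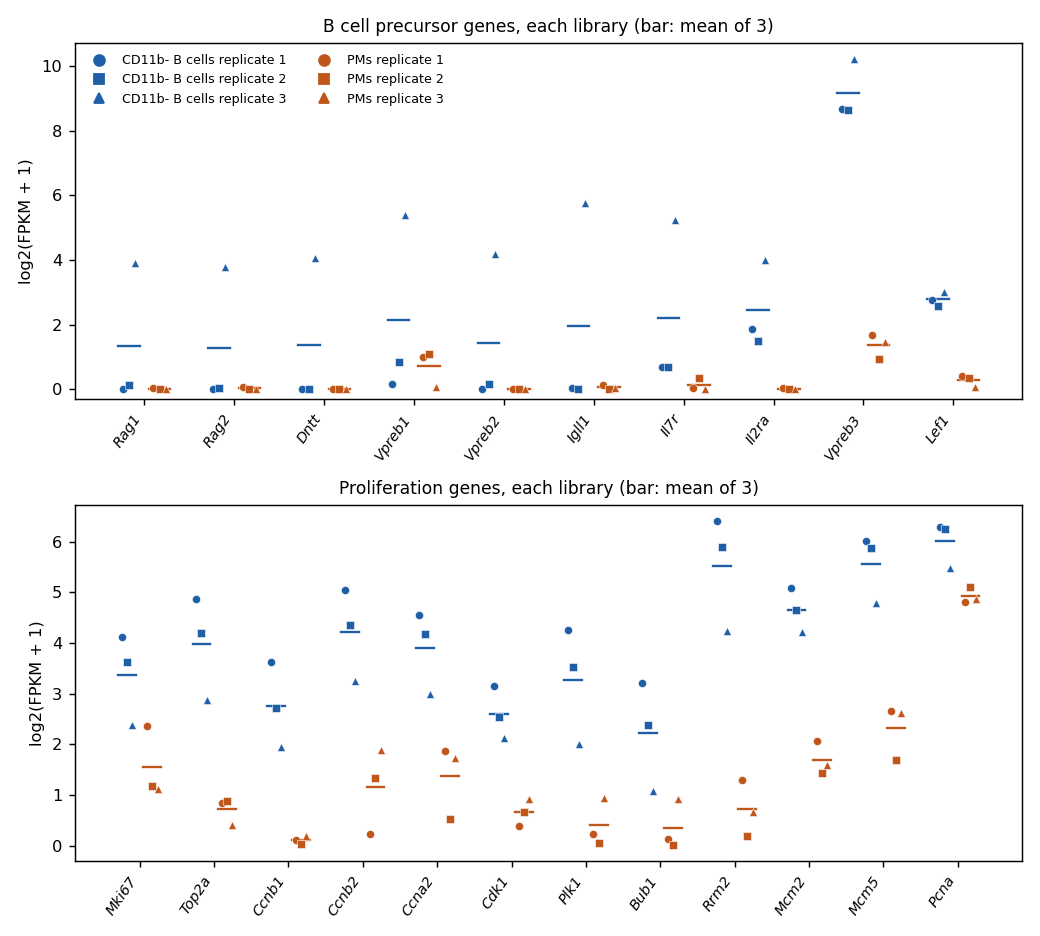
Points give log2(FPKM + 1) of 10 precursor genes (upper panel) and 12 proliferation genes (lower panel) in each library, with circles, squares and triangles for replicates 1, 2 and 3 and bars for the mean of 3. Rag1, Dntt, Igll1 and Il7r are raised in replicate 3 of the CD11b- B cells alone, and the same library is the lowest of its group for the proliferation genes.

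Genes of the macrophage core were higher in PMs for 16 of 17 tested members, and their median log2 fold change was -7.30. The list holds the sort genes Itgam and Adgre1, which were bound to differ, and the share of all tested genes higher in PMs was 11.0%. Csf1r, the receptor for CSF1, was at 160.3, 198 and 210.0 FPKM in PMs and 0.223, 0.174 and 0.13 FPKM in CD11b- B cells (-7.33 ± 0.18, adjusted p = 3.44e-07). Fcer1g, the shared signalling chain of Fc receptors, was at 1293, 1925 and 1280.5 FPKM in PMs and 1.82, 2.03 and 1.28 FPKM in CD11b- B cells (-9.10 ± 0.21, adjusted p = 3.26e-07). Mertk, a receptor for dying cells, was at 38.4, 26.4 and 31.8 FPKM in PMs and 0.00691, 0.126 and 0.00719 FPKM in CD11b- B cells (-4.97 ± 0.23, adjusted p = 4.27e-06). CD11b- B cells held 0.0926% to 0.145% of the PM mean for these 3 genes, and 1.12% for Cd68, a lysosomal glycoprotein of macrophages. Clec4n, the receptor dectin-2, did not pass the threshold at 2.81, 0.916 and 0.174 FPKM in PMs and 0.0211, 0.0202 and 0.022 FPKM in CD11b- B cells and its level was highest in PM replicate 1.

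All 19 tested genes of resident peritoneal macrophages were higher in PMs, and their median log2 fold change was -7.24. Gata6 was at 18.5, 10.5 and 13.2 FPKM in PMs and 0.0138, 0.0132 and 0.0144 FPKM in CD11b- B cells (-3.86 ± 0.28, adjusted p = 4.61e-05). Prg4, a lubricating glycoprotein, was at 2373, 2088 and 1604 FPKM in PMs and 2.04, 1.75 and 2.04 FPKM in CD11b- B cells (-9.41 ± 0.18, adjusted p = 2.53e-07). Timd4, a receptor for phosphatidylserine on dying cells, was at 431, 346 and 348 FPKM in PMs and 0.262, 0.132 and 0.373 FPKM in CD11b- B cells (-8.22 ± 0.17, adjusted p = 2.53e-07). The groups were well apart for all 3 genes. The coagulation factor genes F5 and F10 were at 138, 87.1 and 97.8 FPKM and 137, 216 and 186 FPKM in PMs, while no CD11b- B cell library was above 1.37 FPKM. Cd93, which early B cells also carry, was the member nearest to equal, at 50.3, 29.7 and 34.1 FPKM in PMs and 5.6, 5.9 and 27 FPKM in CD11b- B cells (-1.81 ± 0.55, adjusted p = 0.0347), and it was highest among CD11b- B cells in replicate 3. Its call held only when that library was the one left out.

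Myeloid transcription factors were higher in PMs for 17 of 22 tested members (median log2 fold change -2.54). Cebpb, a C/EBP factor of myeloid cells, was at 62.6, 28.8 and 20.8 FPKM in PMs and 0.12, 0.114 and 0 FPKM in CD11b- B cells (-5.01 ± 0.39, adjusted p = 6.47e-05). Cebpa, which directs myeloid development, was at 19.6, 18.6 and 15.1 FPKM in PMs and 0, 0.0217 and 0.0355 FPKM in CD11b- B cells (-4.19 ± 0.24, adjusted p = 1.11e-05). These factors were near 0 in CD11b- B cells, unlike Spi1, which was at 43.9 FPKM on average there. Id2 and Id3, which block E protein transcription factors, went in opposite directions. Id2 was at 130.3, 75.1 and 86.9 FPKM in PMs and 2.91, 2.77 and 3.44 FPKM in CD11b- B cells (-4.57 ± 0.23, adjusted p = 6.5e-06). Id3 was at 181, 188 and 184 FPKM in CD11b- B cells and 20.3, 17.9 and 14.9 FPKM in PMs (3.32 ± 0.16, adjusted p = 5.3e-06). Neither gene overlapped between the groups. Spic, a PU.1 relative, was higher in CD11b- B cells at a low level (0.523, 0.552 and 0.479 FPKM against 0.0145, 0.00891 and 0 FPKM in PMs). Pparg, a lipid-sensing receptor, did not pass the threshold, with 0.0752, 2.82 and 0.0168 FPKM in PMs and 0 in all 3 CD11b- B cell libraries.

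By size, Saa3 led the genes higher in PMs, at 8254, 3608 and 3567 FPKM in PMs and 3.75, 3.09 and 4.51 FPKM in CD11b- B cells (-9.96 ± 0.34, adjusted p = 9.98e-07), followed by Lyz2, Retnla, Alox15, C1qb, Cxcl13, C1qa, C1qc, Prg4, Pf4, Ccl6 and Wfdc17. The lead over Lyz2 (-9.95) was lost with median-ratio scaling, at -10.44 against -10.48 for Lyz2. It was also lost without replicate 3 of the CD11b- B cells (-10.07 against -10.1) and without PM replicate 1 (-9.56 against -10.39). Saa3 is an acute-phase serum amyloid A protein, and here it was 1359-fold higher in cells from untreated mice than in B cells from mice given LPS. Retnla, a secreted protein of alternatively activated macrophages, was at 6247, 7557 and 3808 FPKM in PMs and 4.75, 4.31 and 6.15 FPKM in CD11b- B cells (-9.87 ± 0.27, adjusted p = 4.97e-07). Cxcl13, a chemokine that attracts B cells, was at 1850.3, 1339.8 and 1690.1 FPKM in PMs and 1.43, 0.872 and 1.6 FPKM in CD11b- B cells (-9.47 ± 0.20, adjusted p = 2.53e-07). Its receptor Cxcr5 was at 83.2, 86.2 and 69.1 FPKM in CD11b- B cells and 10.1, 2.99 and 2.72 FPKM in PMs (3.87 ± 0.41, adjusted p = 0.00031), so ligand and receptor lay on opposite sides of the comparison.

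**Figure D4:**
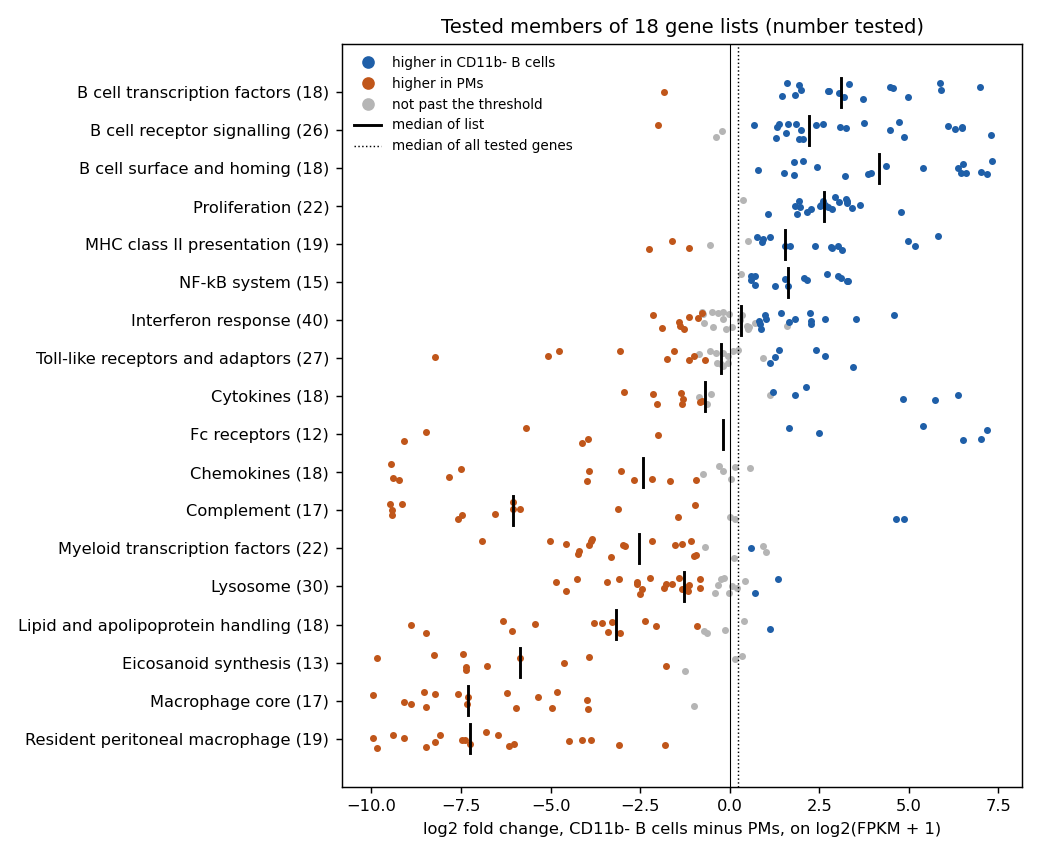
Points give the log2 fold change (x axis, positive where CD11b- B cells were higher) of each tested member of 18 gene lists (y axis, number tested in parentheses), coloured by the call, with black bars for list medians and a dotted line for the median of all tested genes at 0.24. B cell and proliferation lists lie to the right, macrophage, complement and eicosanoid lists to the left, and the Fc receptor list is split between both sides.

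The machinery for uptake and lipid handling was higher in PMs. Of 19 tested scavenger and phagocytic receptors, 14 were higher in PMs and 1, the engulfment adaptor Elmo1, in CD11b- B cells, a call lost with median-ratio scaling (adjusted p = 0.0662). Marco, which binds bacteria, was at 381, 266 and 347 FPKM in PMs and 0.249, 0.164 and 0.794 FPKM in CD11b- B cells (-7.90 ± 0.23, adjusted p = 6.28e-07). Msr1, the class A scavenger receptor, was at 124, 137 and 139 FPKM in PMs and 0.0945, 0.0768 and 0.192 FPKM in CD11b- B cells (-6.91 ± 0.17, adjusted p = 3.44e-07). Both were below 1 FPKM in every CD11b- B cell library. Of 18 tested lipid genes, 13 were higher in PMs and 1, Mylip, a ligase that targets the LDL receptor, in CD11b- B cells (1.12 ± 0.29, adjusted p = 0.0193), a call lost with median-ratio scaling (0.61, adjusted p = 0.124) and in 4 of the 6 fits that left out 1 library, without replicate 2 or 3 of either group. Fabp4, a fatty acid carrier, was at 122, 94.6 and 77.7 FPKM in PMs and 0.314, 0.262 and 0.0625 FPKM in CD11b- B cells (-6.34 ± 0.23, adjusted p = 1.29e-06). Lpl, which releases fatty acids from lipoproteins, was at 78.2, 59.7 and 74.2 FPKM in PMs and 0.0601, 0.0656 and 0.0655 FPKM in CD11b- B cells (-6.07 ± 0.20, adjusted p = 8.57e-07). Libraries of both groups were far apart for these 2 genes. The cholesterol exporters did not pass the threshold. Abcg1 was at 14.9, 16.9 and 20.4 FPKM in CD11b- B cells and 11.7, 14.4 and 12.3 FPKM in PMs (adjusted p = 0.129). Abca1 was at 7.44, 8.74 and 16.3 FPKM in CD11b- B cells and 18.9, 12.9 and 17.9 FPKM in PMs (adjusted p = 0.15), and Abca1 was called higher in PMs without replicate 3 of the CD11b- B cells (log2 fold change -0.93, adjusted p = 0.0321) and with median-ratio scaling (-1.12, adjusted p = 0.0221).

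Lysosomal genes were higher in PMs for 20 of 30 tested members and higher in CD11b- B cells for 2, among them the protease gene Ctsc (0.71, adjusted p = 0.0445). With median-ratio scaling no member was called higher in CD11b- B cells, and Ctsc had a log2 fold change of 0.19 (adjusted p = 0.535). Their median log2 fold change of -1.27 was smaller than that of the macrophage core. Ctsd, an aspartic protease, was at 441, 573 and 669 FPKM in PMs and 17.4, 16 and 22.3 FPKM in CD11b- B cells (-4.84 ± 0.21, adjusted p = 3.06e-06). Ctsl, a cysteine protease, was at 24.7, 31.3 and 26 FPKM in PMs and 0.462, 0.446 and 0.462 FPKM in CD11b- B cells (-4.27 ± 0.21, adjusted p = 5.25e-06). The groups did not overlap for Ctsd or Ctsl. Hexa, which encodes an enzyme of ganglioside breakdown, was at 332, 401 and 506 FPKM in PMs and 49.8, 45.6 and 45.9 FPKM in CD11b- B cells (-3.08 ± 0.19, adjusted p = 1.82e-05). Lamp1, a protein of the lysosomal membrane, was at 203, 227 and 299 FPKM in PMs and 57.8, 64 and 16.1 FPKM in CD11b- B cells, and replicate 3 was the lowest CD11b- B cell library.

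Complement genes were higher in PMs for 13 of 17 tested members. C1qa, C1qb and C1qc, the chains of C1q, were at 1574, 2479 and 1870.1 FPKM, 2819, 5191 and 5012 FPKM and 1639.9, 1986 and 1955 FPKM in PMs, while the highest value in CD11b- B cells was 7.97 FPKM (C1qb). C4b was at 1043, 968 and 1074 FPKM in PMs and 0.768, 0.715 and 0.959 FPKM in CD11b- B cells (-9.15 ± 0.14, adjusted p = 2.53e-07). C3 was at 64.6, 53.2 and 63.5 FPKM in PMs and 0.0816, 0.0613 and 0.0546 FPKM in CD11b- B cells (-5.84 ± 0.19, adjusted p = 8.81e-07). The groups did not overlap for C4b or C3. C3ar1, a receptor for a fragment of C3, was at 80.8, 58.8 and 72.3 FPKM in PMs and 0.0766, 0.0533 and 0.087 FPKM in CD11b- B cells. The 2 members higher in CD11b- B cells were a receptor and a regulator. Cr2, the complement receptor CD21, was at 35.6, 40.6 and 25.9 FPKM in CD11b- B cells and 0.136, 0.265 and 0.183 FPKM in PMs (4.85 ± 0.24, adjusted p = 5.64e-06). Cd55, which speeds the decay of convertases, was at 72.8, 77 and 64.6 FPKM in CD11b- B cells and 2, 2.57 and 1.33 FPKM in PMs (4.63 ± 0.21, adjusted p = 3.69e-06).

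Eicosanoid genes were higher in PMs for 10 of 13 tested members (median log2 fold change -5.85). Alox15, a lipoxygenase of resident PMs, was at 3963, 4629 and 4255 FPKM in PMs and 3.31, 3.37 and 4.41 FPKM in CD11b- B cells (-9.84 ± 0.16, adjusted p = 2.53e-07). Ltc4s, which makes leukotriene C4, was at 580.0, 640.1 and 459.7 FPKM in PMs and 0.65, 0.622 and 1.2 FPKM in CD11b- B cells (-8.27 ± 0.20, adjusted p = 3.44e-07). Ptgs1, the constitutive cyclooxygenase, was at 199, 198 and 195 FPKM in PMs and 0.17, 0.184 and 0.273 FPKM in CD11b- B cells (-7.36 ± 0.16, adjusted p = 2.53e-07). Lta4h, which makes leukotriene B4, did not pass the threshold, at 20.6, 15.1 and 13.5 FPKM in CD11b- B cells and 15.6, 10.4 and 18.1 FPKM in PMs (log2 fold change 0.16, or -0.34 with median-ratio scaling). The groups overlapped for Lta4h. Iron genes were higher in PMs for 8 of 11 tested members, among them Slc11a1, a metal exporter of phagosomes, at 139.8, 133 and 158 FPKM in PMs and 0.146, 0.0696 and 0.143 FPKM in CD11b- B cells (-7.01 ± 0.17, adjusted p = 3.44e-07). The transferrin receptor gene Tfrc was the member higher in CD11b- B cells, at 12.5, 12.5 and 15 FPKM in CD11b- B cells and 1.64, 1.4 and 1.27 FPKM in PMs (2.55 ± 0.21, adjusted p = 9.44e-05).

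Several gene families were split, with one member high in each cell type. Among 7 tested signalling adaptors of immune receptors, most of which carry ITAM motifs that bind Syk family kinases, Cd79a and Cd79b (at 1966, 1979 and 2115 FPKM in CD11b- B cells and 34.8, 19.9 and 22 FPKM in PMs) were higher in CD11b- B cells, and Fcer1g, Tyrobp and Hcst were higher in PMs. Hcst (DAP10) has no ITAM and binds PI3 kinase. Tyrobp was at 2570.3, 3964 and 3071 FPKM in PMs and 38.2, 57.3 and 55.4 FPKM in CD11b- B cells (-5.96 ± 0.25, adjusted p = 2.35e-06). The linker Blnk, which joins Syk to Plcg2 in B cells, was at 104, 99.1 and 137 FPKM in CD11b- B cells and 9.15, 5.03 and 9.07 FPKM in PMs (3.74 ± 0.25, adjusted p = 2.95e-05). Of 16 tested linkers and effectors, 10 were higher in CD11b- B cells and 3 in PMs, and Blnk was higher in CD11b- B cells in every library. Its relative Lcp2 (SLP-76) was at 43.8, 29.7 and 39.6 FPKM in PMs and 0.0874, 0.308 and 0.105 FPKM in CD11b- B cells (-5.04 ± 0.23, adjusted p = 4.22e-06). The groups did not overlap in either linker, and the pattern was opposite. Syk itself was at 126, 119.9 and 156 FPKM in CD11b- B cells and 43.4, 23.1 and 31.3 FPKM in PMs (2.04 ± 0.24, adjusted p = 0.000602).

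Src, Syk and Tec family kinases were higher in CD11b- B cells for 9 of 14 tested members and higher in PMs for 2, beside 25.8% and 11.0% of all tested genes. The second number was 1 when any library other than PM replicate 3 was left out. Blk, a kinase named for B lymphocytes, was at 112, 121 and 156 FPKM in CD11b- B cells and 11.3, 3.68 and 2.37 FPKM in PMs (4.48 ± 0.45, adjusted p = 0.000242). Fgr, a Src kinase best known in myeloid cells, went the other way, at 44.2, 29.8 and 34.4 FPKM in PMs and 14, 11.1 and 10 FPKM in CD11b- B cells (-1.54 ± 0.21, adjusted p = 0.0011). The groups did not overlap for Blk or Fgr. Lck, known from T cells, was at 11.6, 11.6 and 18.4 FPKM in CD11b- B cells and 0.265, 0.386 and 1.24 FPKM in PMs (3.21 ± 0.32, adjusted p = 0.000255). Cd3e, a defining gene of T cells, was at 0, 0 and 0.0994 FPKM in the same CD11b- B cell libraries. Summed levels over the list of T cell genes, which holds Lck, were 12.3, 11.9 and 20.5 FPKM there. The part of T cells in the Lck level was not tested.

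Fc receptors were evenly split, with 6 of 12 higher in CD11b- B cells and 6 higher in PMs, also with median-ratio scaling. Those higher in CD11b- B cells were Fcmr, Fcer2a, Fcrl1, Fcrla, Fcrl5 and Fcamr, and those higher in PMs were Fcer1g, Fcgr3, Fcgr4, Fcgrt, Fcgr1 and Fcgr2b. Fcgr3, a low-affinity activating receptor for IgG, was at 525, 669 and 747 FPKM in PMs and 0.535, 0.99 and 0.934 FPKM in CD11b- B cells (-8.47 ± 0.20, adjusted p = 2.99e-07). Fcgr4, another activating receptor for IgG, was at 52.5, 60 and 48.3 FPKM in PMs and 0.0477, 0.0913 and 0.0248 FPKM in CD11b- B cells (-5.69 ± 0.20, adjusted p = 1.08e-06). The Fcgr genes all lay on the PM side, and Fcmr and Fcer2a, for IgM and IgE, on the other.

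Subunits of the phagocyte NADPH oxidase were also split. Cybb, its catalytic subunit, was at 415, 304 and 437 FPKM in PMs and 75.3, 76.2 and 59 FPKM in CD11b- B cells (-2.43 ± 0.20, adjusted p = 9.44e-05), and Cyba was also higher in PMs. Ncf4 was at 201, 207 and 181 FPKM in CD11b- B cells and 86.5, 83.3 and 75.4 FPKM in PMs (1.26 ± 0.15, adjusted p = 0.000588). Rac2 was at 602, 626 and 572 FPKM in CD11b- B cells and 139.7, 253 and 208 FPKM in PMs (1.62 ± 0.24, adjusted p = 0.00172). These 2 subunits were higher in every CD11b- B cell library. Ncf1 was at 98.4, 92.1 and 63.4 FPKM in CD11b- B cells and 63.3, 85.4 and 93 FPKM in PMs and did not pass the threshold (log2 fold change 0.06, or -0.47 with median-ratio scaling). The 2 groups overlapped for Ncf1. Of 15 tested integrins, 8 were higher in PMs and 2 in CD11b- B cells, beside 11.0% and 25.8% of all tested genes. The sort gene Itgam, bound to differ, is among those higher in PMs. The number higher in CD11b- B cells was 1 with median-ratio scaling and when any library other than PM replicate 1 was left out. Of the members higher in CD11b- B cells, Itgal, the partner of the β2 chain in LFA-1, was at 27.7, 27 and 24.9 FPKM in CD11b- B cells and 0.532, 2.67 and 1.85 FPKM in PMs (3.45 ± 0.33, adjusted p = 0.000189). The β2 chain Itgb2 was at 495, 609 and 566 FPKM in PMs and 53.5, 53.1 and 61.7 FPKM in CD11b- B cells (-3.29 ± 0.16, adjusted p = 5.74e-06).

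**Figure D5:**
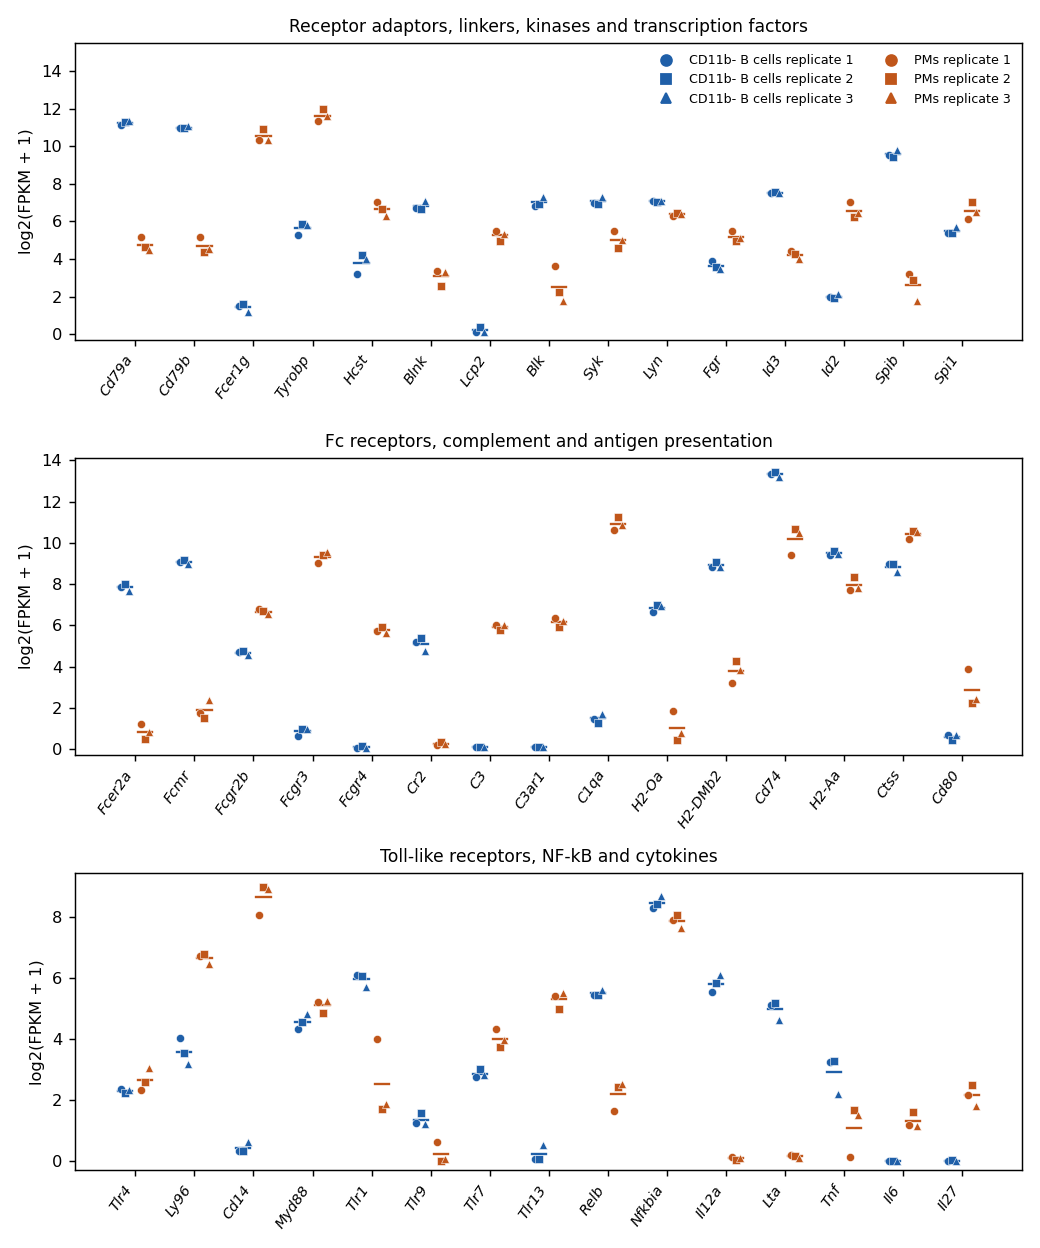
Points give log2(FPKM + 1) of 45 genes in each library, in 3 panels of 15 genes, with circles, squares and triangles for replicates 1, 2 and 3, blue for CD11b- B cells, orange for PMs and bars for the mean of 3. Blnk and Lcp2, Id3 and Id2, and Cr2 and C3 show opposite patterns, whereas the means of Lyn, Tlr4, Myd88 and Nfkbia lie within 0.69 of each other on this scale.

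Genes of MHC class II presentation were higher in CD11b- B cells for 14 of 19 tested members and higher in PMs for 3, and for 9 and 4 with median-ratio scaling. Leaving out 1 library gave 10 to 13 members higher in CD11b- B cells and 3 to 4 higher in PMs. The largest differences were in genes that modulate peptide loading. H2-Oa and H2-Ob form H2-O, which restrains loading. H2-Oa was at 98.3, 124 and 119.9 FPKM in CD11b- B cells and 2.56, 0.341 and 0.74 FPKM in PMs (5.82 ± 0.35, adjusted p = 1.64e-05). H2-Ob was at 182, 189.9 and 167 FPKM in CD11b- B cells and 7.22, 2.6 and 5.28 FPKM in PMs (4.98 ± 0.29, adjusted p = 1.41e-05). H2-DMb2, a chain of the loading factor H2-DM, was at 461, 544 and 452 FPKM in CD11b- B cells and 8.07, 18.5 and 13.1 FPKM in PMs (5.16 ± 0.28, adjusted p = 8.63e-06), while its near copy H2-DMb1 was at 99.6, 131 and 99.2 FPKM in CD11b- B cells and 65, 96.8 and 71.4 FPKM in PMs (adjusted p = 0.0981). Reads of such close copies may have been split in counting. The class II chain H2-Aa, at 685, 787 and 711 FPKM in CD11b- B cells and 211, 329 and 225 FPKM in PMs (1.53 ± 0.22, adjusted p = 0.00145), was nearer to equal, and Ciita, the activator of class II genes, was at 40.2, 46.6 and 45.4 FPKM in CD11b- B cells and 5.41, 4.62 and 3.72 FPKM in PMs (3.02 ± 0.18, adjusted p = 1.74e-05). Members higher in PMs were the proteases Ctss, at 1168, 1526 and 1487 FPKM in PMs and 502, 499 and 379 FPKM in CD11b- B cells (-1.60 ± 0.22, adjusted p = 0.00129), and Lgmn. The costimulatory ligand Cd80, also higher in PMs, was at 13.7, 3.63 and 4.4 FPKM in PMs and 0.599, 0.364 and 0.581 FPKM in CD11b- B cells (-2.25 ± 0.46, adjusted p = 0.00707).

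The receptors for LPS were compared because only the B cells had been exposed to it. Tlr4 was at 4.12, 3.7 and 4.04 FPKM in CD11b- B cells and 4.02, 5.12 and 7.29 FPKM in PMs (-0.36 ± 0.26, adjusted p = 0.318, and -0.80 with an adjusted p of 0.0628 by median-ratio scaling). Its helpers were higher in PMs. Cd14 was at 268, 513 and 493 FPKM in PMs and 0.26, 0.265 and 0.558 FPKM in CD11b- B cells (-8.24 ± 0.27, adjusted p = 9.15e-07). Ly96 (MD-2) was at 104, 109 and 87.8 FPKM in PMs and 15.4, 10.7 and 8.19 FPKM in CD11b- B cells (-3.06 ± 0.23, adjusted p = 5.71e-05). Lbp was at 23.2, 30.6 and 28.4 FPKM in PMs and 0.0496, 0.0237 and 0.0387 FPKM in CD11b- B cells (-4.77 ± 0.22, adjusted p = 4.34e-06). PMs were above CD11b- B cells in every library for the 3 helpers, and the groups overlapped for Tlr4. The adaptor Myd88 was at 19.3, 22.8 and 27.2 FPKM in CD11b- B cells and 36.7, 28.1 and 37.6 FPKM in PMs (-0.55 ± 0.20, adjusted p = 0.0637, and -1.06 with an adjusted p of 0.00384 by median-ratio scaling).

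Of 27 tested genes of Toll-like receptors, their coreceptors and adaptors, 6 were higher in CD11b- B cells and 9 in PMs, beside 25.8% and 11.0% of all tested genes. The first share is not above that of all genes. The number higher in PMs was 11 with median-ratio scaling, 17 with DESeq2 and as low as 6 when 1 library was left out. Tlr1, a partner of TLR2 for lipopeptides, was at 68.1, 67.2 and 51.3 FPKM in CD11b- B cells and 15, 2.31 and 2.68 FPKM in PMs (3.43 ± 0.56, adjusted p = 0.00271), and replicate 1 was the highest PM library. Tlr9, a receptor for DNA, was at 1.4, 2 and 1.34 FPKM in CD11b- B cells and 0.559, 0 and 0.057 FPKM in PMs (1.12 ± 0.27, adjusted p = 0.0137). CD11b- B cells were higher in every library for Tlr1 and Tlr9. Tlr13, a receptor for bacterial ribosomal RNA, was at 42.3, 30.7 and 44.4 FPKM in PMs and 0.0557, 0.0466 and 0.464 FPKM in CD11b- B cells (-5.08 ± 0.25, adjusted p = 5.82e-06). Tlr7, a receptor for single-stranded RNA, was at 19.2, 12.3 and 14.7 FPKM in PMs and 5.83, 7.2 and 6.1 FPKM in CD11b- B cells (-1.14 ± 0.22, adjusted p = 0.00542). Of the genes for nucleic acid sensing, Tlr9 and the trafficking factor Unc93b1 were called higher in CD11b- B cells, and Tlr3, Tlr7, Tlr8 and Tlr13 in PMs. Without replicate 3 of the CD11b- B cells, Tlr3 did not pass (log2 fold change -1.02, adjusted p = 0.0676).

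Genes of the NF-kB system were higher in CD11b- B cells for 14 of 15 tested members (median log2 fold change 1.62), and for 9 with median-ratio scaling. Relb, the subunit of the alternative pathway, was at 43.1, 42.4 and 48.2 FPKM in CD11b- B cells and 2.17, 4.37 and 4.73 FPKM in PMs (3.30 ± 0.25, adjusted p = 5.99e-05). Nfkb2, its partner, was at 101, 102 and 97.4 FPKM in CD11b- B cells and 15, 15.6 and 13.1 FPKM in PMs (2.704 ± 0.15, adjusted p = 8.89e-06). The inhibitors Nfkbie, at 85.2, 90.2 and 100.4 FPKM in CD11b- B cells and 7.8, 10.8 and 10.8 FPKM in PMs (3.12 ± 0.18, adjusted p = 1.22e-05), and Nfkbid, at 142, 143 and 116 FPKM in CD11b- B cells and 17.6, 9.38 and 12.5 FPKM in PMs (3.28 ± 0.23, adjusted p = 3.95e-05), were higher as well. The subunits Rela and Nfkb1 and the inhibitor Nfkbia, whose calls were also lost when single libraries were left out, had log2 fold changes of 0.60, 0.69 and 0.60, which became 0.07, 0.21 and 0.07 and lost their calls with median-ratio scaling.

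Interferon response genes were called in both directions. Of 40 tested members, 14 were higher in CD11b- B cells and 8 in PMs, beside 25.8% and 11.0% of all tested genes. Median-ratio scaling gave 10 and 13, beside 16.2% and 14.7%. The number higher in PMs was 16 with DESeq2, 4 without replicate 2 and 5 without replicate 3 of the CD11b- B cells. Ly6a (Sca-1) was at 288, 375 and 301 FPKM in CD11b- B cells and 12.9, 14.3 and 9.99 FPKM in PMs (4.59 ± 0.19, adjusted p = 2.37e-06). Oasl1, an inhibitor of Irf7 translation, was at 16.3, 15.1 and 18 FPKM in CD11b- B cells and 0.915, 0.42 and 0.304 FPKM in PMs (3.52 ± 0.25, adjusted p = 3.7e-05). These 2 genes were higher in every CD11b- B cell library. Oas2, a sensor enzyme for double-stranded RNA, was at 79.8, 28.5 and 20.7 FPKM in PMs and 8.13, 8.45 and 6.06 FPKM in CD11b- B cells (-2.13 ± 0.46, adjusted p = 0.00875). Bst2 (tetherin), which holds virus particles at the cell surface, was at 159, 195 and 124 FPKM in PMs and 42.4, 45.2 and 38.2 FPKM in CD11b- B cells (-1.88 ± 0.20, adjusted p = 0.000312). OAS and OAS-like genes thus lay on both sides.

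Cytokine genes were higher in CD11b- B cells for 6 of 18 tested members and higher in PMs for 8, beside 25.8% and 11.0% of all tested genes. The second number was 4 without replicate 1 and 5 without replicate 2 or 3 of the CD11b- B cells. Ltb, a chain of membrane lymphotoxin, was at 548, 690.2 and 519.6 FPKM in CD11b- B cells and 8.93, 5.47 and 4.51 FPKM in PMs (6.36 ± 0.25, adjusted p = 1.76e-06). Lta, its partner chain, was at 33.8, 35.8 and 24.1 FPKM in CD11b- B cells and 0.161, 0.124 and 0.0717 FPKM in PMs (4.83 ± 0.24, adjusted p = 5.44e-06). Il12a, which encodes the p35 chain shared by IL-12 and IL-35, was at 45.4, 56.3 and 68.3 FPKM in CD11b- B cells and 0.0979, 0.0403 and 0.0874 FPKM in PMs (5.73 ± 0.22, adjusted p = 1.68e-06). The CD11b- B cell mean of Il12a was 754-fold above that of PMs, and the 9647 and 8 reads behind it came from every library of each group. Ebi3, the second chain of IL-35, was at 14, 7.03 and 11 FPKM in CD11b- B cells and 1.97, 4.84 and 7.21 FPKM in PMs and did not pass the threshold (1.11 ± 0.41, adjusted p = 0.0708). Il12b, the second chain of IL-12, was at 0 in 5 of the 6 libraries and at 0.00971 FPKM in the mean of CD11b- B cells, below the level tested.

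Il6 had no read in the 3 CD11b- B cell libraries and was at 1.28, 2.1 and 1.24 FPKM in PMs, at least 132-fold higher against a floor of 3 reads over the group (adjusted p = 0.00264). Il27, the p28 chain of IL-27, was at 3.48, 4.69 and 2.52 FPKM in PMs and 0, 0.0281 and 0 FPKM in CD11b- B cells (-2.15 ± 0.27, adjusted p = 0.000836). Tnf was at 8.59, 8.69 and 3.65 FPKM in CD11b- B cells and 0.102, 2.19 and 1.84 FPKM in PMs (1.81 ± 0.49, adjusted p = 0.0237), and its call was lost with median-ratio scaling (adjusted p = 0.0884) and without replicate 1 or 2 of the CD11b- B cells. The groups did not overlap for Il6, Il27 or Tnf. The receptor Tnfrsf1a was at 101, 135 and 89.8 FPKM in PMs and 0.208, 0.133 and 0.108 FPKM in CD11b- B cells (-6.55 ± 0.21, adjusted p = 8.12e-07), 725-fold higher in PMs. Il10, which the study followed in CD11b+ B cells, was at 0.549, 0 and 0 FPKM in CD11b- B cells and 8.01, 0.0261 and 0 FPKM in PMs (-0.86 ± 0.80, adjusted p = 0.416), with 190 PM reads that were mostly in replicate 1. Il10 was thus at or near 0 in 4 of the 6 libraries. Its receptor chain Il10ra was at 63, 68.9 and 83.1 FPKM in CD11b- B cells and 51.2, 36.2 and 56.5 FPKM in PMs (adjusted p = 0.0654).

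Among 23 tested cytokine receptors, 10 were higher in PMs and 7 in CD11b- B cells, beside 11.0% and 25.8% of all tested genes. Il21r, which supports B cell responses to T cell help, was at 148, 161 and 132 FPKM in CD11b- B cells and 1.72, 1.69 and 2.42 FPKM in PMs (5.66 ± 0.18, adjusted p = 7.43e-07). Il5ra was at 16.9, 14.1 and 10.5 FPKM in CD11b- B cells and 0.326, 0.115 and 0.0693 FPKM in PMs (3.65 ± 0.27, adjusted p = 5.31e-05). Both were higher in every CD11b- B cell library. Csf2ra, the receptor for GM-CSF, was at 119, 105 and 98.1 FPKM in PMs and 8.09, 12.7 and 11.5 FPKM in CD11b- B cells (-3.22 ± 0.20, adjusted p = 1.77e-05). Csf3r, the receptor for G-CSF, was at 75.9, 50.1 and 62.6 FPKM in PMs and 0.0581, 0.119 and 0.0605 FPKM in CD11b- B cells (-5.87 ± 0.22, adjusted p = 1.51e-06). The receptor genes for CSF1, GM-CSF and G-CSF were all higher in PMs.

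Chemokine genes were higher in PMs for 12 of 18 tested members, and no member passed the threshold in the other direction, or 1 without replicate 3 of the CD11b- B cells. Pf4 was at 2983, 3290.0 and 2257 FPKM in PMs and 2.45, 2.94 and 4.33 FPKM in CD11b- B cells (-9.40 ± 0.23, adjusted p = 3.44e-07). Ccl6 was at 815, 1405 and 1578 FPKM in PMs and 0.885, 0.878 and 1.32 FPKM in CD11b- B cells (-9.24 ± 0.26, adjusted p = 5.59e-07). Ccl24, which attracts eosinophils, was at 177, 224 and 226 FPKM in PMs and 0.0694, 0.0885 and 0.289 FPKM in CD11b- B cells (-7.51 ± 0.19, adjusted p = 3.55e-07). All 3 were near 0 in CD11b- B cells next to their PM levels. Cxcl2, which attracts neutrophils, was lower in level, at 22.5, 13.6 and 10.7 FPKM in PMs and 0, 0 and 0.0302 FPKM in CD11b- B cells (-3.97 ± 0.32, adjusted p = 7.22e-05). Cxcl10 was at 0, 0 and 0.528 FPKM in PMs and 0, 0.662 and 0 FPKM in CD11b- B cells (adjusted p = 0.911). Of the receptors, Ccr7, Ccr6, Cxcr5 and Cxcr4 were higher in CD11b- B cells, and Cmklr1, Ccr1, Ccr2 and Cx3cr1 were higher in PMs. The call of Cxcr4 (1.80, adjusted p = 0.0201) was lost with median-ratio scaling (1.46, adjusted p = 0.0508) and without replicate 3 of the CD11b- B cells (1.34, adjusted p = 0.0544). That of Cx3cr1 was also lost without this library (-1.05, adjusted p = 0.0768). Ccr6 was at 13.2, 20.4 and 20.9 FPKM in CD11b- B cells and 0.167, 0.28 and 0.107 FPKM in PMs (3.99 ± 0.27, adjusted p = 2.8e-05). Ccr1 was at 179, 129 and 168 FPKM in PMs and 6.95, 7.78 and 4.01 FPKM in CD11b- B cells (-4.49 ± 0.25, adjusted p = 1.08e-05).

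Lists of basic metabolism and translation had medians below 0. Of all tested genes, 11.0% were higher in PMs and 25.8% in CD11b- B cells. Of 19 tested glycolytic genes, 7 were higher in PMs and 3 in CD11b- B cells (median log2 fold change -0.44, or -0.97 with median-ratio scaling). The count higher in PMs was 11 with edgeR and with DESeq2, beside 20.9% and 19.2% of all genes tested in those fits. It was 5 without replicate 3 of the CD11b- B cells. The glucose transporters Slc2a1 and Slc2a3 were higher in CD11b- B cells, and Slc2a1 was at 14.5, 13.7 and 14.2 FPKM in CD11b- B cells and 4.58, 2.54 and 1.34 FPKM in PMs (2.07 ± 0.32, adjusted p = 0.00212), whereas the hexokinases Hk3, at 11.2, 32.4 and 21.3 FPKM in PMs and 0.0244, 0.0311 and 0.424 FPKM in CD11b- B cells (-4.19 ± 0.39, adjusted p = 0.000171), and Hk2, at 13.2, 13.1 and 11.5 FPKM in PMs and 1.48, 1.39 and 0.57 FPKM in CD11b- B cells (-2.69 ± 0.26, adjusted p = 0.000212), were higher in PMs. These transporters and hexokinases went in opposite directions. Of 85 cytosolic ribosomal protein genes, 25 were higher in PMs and 2 in CD11b- B cells (median log2 fold change -0.37). Of 81 nuclear genes of oxidative phosphorylation, 36 were higher in PMs and 11 in CD11b- B cells (median log2 fold change -0.55). With median-ratio scaling the medians were -0.91 and -1.05, and 54 and 51 genes were called higher in PMs, beside 14.7% of all tested genes, while 0 and 2 were called higher in CD11b- B cells. Quantile normalization gave 20 and 43 genes higher in PMs, beside 14.8% of all tested genes. It gave 7 and 9 higher in CD11b- B cells, beside 16.3%, so the 2 scalings moved the ribosomal counts in opposite directions. Leaving out 1 library gave 9 to 34 ribosomal and 17 to 38 oxidative phosphorylation genes higher in PMs, with the fewest in both lists without replicate 1 of the CD11b- B cells. In that fit, 8.01% of all tested genes were higher in PMs, and the 9 ribosomal genes of 85 are a share near it. The first number was also 12 without replicate 3 of the CD11b- B cells, and the second 23 without replicate 2.

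Of the 8 genes that were highest in both groups without passing the threshold, 3 code for proteins. They were H2-D1, a class I MHC chain, at 2220.5, 2368 and 2689 FPKM in CD11b- B cells and 2138, 2751 and 3079 FPKM in PMs (-0.12 ± 0.27, adjusted p = 0.741). B2m, its partner chain, was at 2037, 2272 and 2111 FPKM in CD11b- B cells and 1996, 2303 and 1692 FPKM in PMs (0.11 ± 0.25, adjusted p = 0.739). Tmsb4x, an actin-binding peptide, was at 2056, 2098 and 1817 FPKM in CD11b- B cells and 3231, 3812 and 2499 FPKM in PMs (-0.66 ± 0.28, adjusted p = 0.105). Its libraries did not overlap, and edgeR (-1.20, adjusted p = 0.00665) and DESeq2 (-1.23, adjusted p = 2.3e-05) called Tmsb4x higher in PMs. DESeq2 also called H2-D1 (-0.68, adjusted p = 0.025), Gm28437 (-0.76, adjusted p = 0.016) and Gm29216 (-0.54, adjusted p = 0.019) higher in PMs, which edgeR did not. The sign for B2m changed with median-ratio scaling, to -0.43. The other 5 genes of this kind were pseudogenes, Gm28437, Gm29216, Gm10925, Gm28661 and Gm13340, of which the first 4 lie next to each other on chromosome 1 between 24613189 and 24616197 (GRCm38). These 4 are nuclear copies of mitochondrial sequence, so reads of mitochondrial RNA cannot be told apart from theirs. Genes named as mitochondrial took 0% of reads in all 6 libraries.

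Of 10 tested plasma cell genes, 5 were higher in CD11b- B cells and 1, the secretory factor Xbp1, in PMs (a call lost without replicate 1 or 2 of the CD11b- B cells or replicate 2 or 3 of the PMs), beside 25.8% and 11.0% of all tested genes, and 8 had a mean of at least 1 FPKM in CD11b- B cells. Genes of other lineages were examined as well. BM cells had been depleted of T cells, NK cells, Gr-1+ cells and erythroid cells before sorting. Of the T cell list, Cd4 and Cd8b1 were at 0 in all 6 libraries, and Trbc2 reached 8.10 FPKM in replicate 1 of the PMs. Lck was the called member of the T cell list and Tbx21, a factor of NK and T cells, that of the NK cell list, both higher in CD11b- B cells. Of the neutrophil list, 5 of 13 tested members were higher in PMs, Prtn3, Csf3r, Mmp9, S100a8 and Lcn2. Prtn3, a granule protease, was at 177, 215 and 121 FPKM in PMs and 0.138, 0.116 and 0.216 FPKM in CD11b- B cells (-7.18 ± 0.24, adjusted p = 9.15e-07). Mmp9, a gelatinase, was at 9.1, 9.56 and 9.21 FPKM in PMs and 0.0254, 0.0162 and 0.00881 FPKM in CD11b- B cells (-3.34 ± 0.24, adjusted p = 4.41e-05). S100a8, a calcium-binding protein, was at 8, 3.21 and 6.85 FPKM in PMs and 1.04, 0.619 and 0.899 FPKM in CD11b- B cells (-1.86 ± 0.35, adjusted p = 0.0052). Lcn2, which binds siderophores, was at 1.88, 0.914 and 2.97 FPKM in PMs and 0.0343, 0.0437 and 0 FPKM in CD11b- B cells (-1.45 ± 0.30, adjusted p = 0.00766). No library of CD11b- B cells reached the PM range for these 4 genes. Of the granule genes, Ltf, Camp and Elane were at or below 0.755 FPKM in every library. Mast cell genes were seen in PMs, with Cma1 at 0.458, 6.66 and 7.73 FPKM and Tpsb2 at 1.25, 4.08 and 6.25 FPKM. Haemoglobin transcripts were found in CD11b- B cells, with Hba-a1 at 12.2, 4.48 and 0.538 FPKM and no read in PMs (adjusted p = 0.0378), at least 106-fold higher against a floor of 3 reads over the group. The call was lost with median-ratio scaling (adjusted p = 0.0532) and when any 1 library other than replicate 3 of the CD11b- B cells was left out (adjusted p = 0.0795 without PM replicate 1). Summed levels over the dendritic cell list were 76.3, 60.8 and 45.5 FPKM in PMs, carried by Cd209a at 65.5, 58.3 and 43.2 FPKM, and 2.54, 0.897 and 1.86 FPKM in CD11b- B cells. The part of such transcripts in the differences above was not tested.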

How the data were processed

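RNA of sorted cells was made into SMART-seq HT libraries, which do not mark strand, and sequenced as paired reads. Per the labels and the submitters' processing notes, the authors trimmed reads (Trim Galore 0.4.4, Trimmomatic 0.36, cutadapt 1.16), aligned them with STAR 2.7.2b, counted them per gene with featureCounts 1.6.1 and used DESeq2 1.20.0. The notes list GRCm38 and GRCm39, and genes were placed by identifier on GENCODE M21 (GRCm38). The deposited table of 55322 genes holds FPKM. A second deposited table of 11063 rows holds normalized signal and was used only to check whole reads. Whole read counts were recovered from the deposited FPKM for 100% of values (tolerance 0.05).

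Genes with a mean of at least 0.05 FPKM over the 6 libraries were fitted in R 4.3.3 with limma 3.58.1 (trend, two-sided) on log2(FPKM + 1), a log2 scale applied here to the deposited FPKM, which understates changes of low genes. The threshold was a Benjamini-Hochberg adjusted p of 0.05. edgeR 4.0.16 and DESeq2 1.42.0 were run on the recovered reads as alternatives. The members and gene lists were chosen with earlier results of these data known. Named genes were markers, the 12 called genes with the largest change in each direction (groups not overlapping, a mean of at least 1 FPKM in the higher group, no variable, joining or diversity segment), the 8 most abundant genes not past the threshold, and list members. Overlapping genes (Vpreb3, Cd72, Iglc1, Ms4a1, Prg4, Ccl6, Itgam, B2m and Cd74 overlap another gene) and antisense partners cannot be told apart. Some genes are not reported here.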

Additional observations from a re-analysis of the deposited data

How the results depend on the processing

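Of 20985 tested genes, 5404 were higher in CD11b- B cells and 2306 were higher in PMs. The first number became 3401 with median-ratio scaling, 3415 with quantile normalization and 3200 with edgeR, and the second became 4030 with DESeq2, beside 3718 in the first, so that DESeq2 called more genes higher in PMs. The edgeR fit tested fewer genes, 15131. Leaving out 1 library at a time gave 4002 to 5837 genes higher in CD11b- B cells and 1657 to 2460 higher in PMs. The replicate block gave 4948 and 2177. Deviations of same-numbered libraries had correlations of -0.028, -0.024 and -0.013, so the numbers were not taken as pairs.

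The genes whose direction turned were near equal or rested on 1 library. With quantile normalization, log2 fold changes became 0.35 for Gm29216, 0.15 for Gm10925, 0.68 for Gm28661 and 0.55 for H2-D1. B2m became -0.43 with median-ratio scaling, -0.43 with edgeR and -0.45 with DESeq2, and H2-DMb1 became -0.026, -0.037 and -0.059. Leaving out 1 library at a time, the Gm29216 log2 fold change was -0.11 to 0.090, the Gm10925 log2 fold change -0.39 to 0.12, the Gm28661 log2 fold change -0.39 to 0.11 and the B2m log2 fold change -0.0042 to 0.22. The Vpreb1 log2 fold change was -0.21 to 2.41, lowest without replicate 3 of the CD11b- B cells, and the Il10 log2 fold change was -1.39 to 0.19, highest without replicate 1 of the PMs. The Cxcl10 log2 fold change was -0.20 to 0.24, the Lta4h log2 fold change -0.056 to 0.32 and the Ncf1 log2 fold change -0.099 to 0.26.

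By setting, the Abcg1 log2 fold change became -0.093 with median-ratio scaling, -0.075 with quantile normalization and -0.086 with edgeR. The Cxcl10 log2 fold change became -0.034 with quantile normalization. In the order median-ratio scaling, quantile normalization, edgeR and DESeq2, the Lta4h log2 fold change became -0.34, -0.33, -0.35 and -0.36, and the Ncf1 log2 fold change became -0.47, -0.00066, -0.46 and -0.48.

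Among the genes described, calls of Hba-a1, Ctsc and Cd93 held in 1 of the 6 fits that left out a library, the one without replicate 3 of the CD11b- B cells. Spi1, S1pr1 and Tnf lost theirs without replicate 1 or 2 of the CD11b- B cells, and Mki67 without those or PM replicate 2 or 3. Il2ra lost its call without PM replicate 2 or 3, Cma1 in all but the fit without PM replicate 1, and Elmo1 without replicate 1 of the CD11b- B cells. Rela, Nfkb1, Nfkbia, Cxcr4, Cx3cr1, Tlr3, Tlr8 and Xbp1 each lost theirs in at least 1 such fit. Among genes named in the text, the replicate block ended the calls of Ctsc, Nfkb1, Rela and Nfkbia, and Ighg2b and Ighg3 passed with it. It also gave fewer calls in several lists, for example 10 in place of 14 in the NF-kB system and 7 in place of 9 among the kinases higher in CD11b- B cells. Apart from what scaling does by construction and the smaller number of libraries in such fits, the cause was not tested. Depth limits genes near 0, above all in PM replicate 1.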
